A study of Mus musculus with 36 samples.

Results

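The genes described here are 31 enzymes, regulators and transporters of sterol and fatty acid synthesis, followed through the differentiation of mouse embryonic stem cells towards motor neurons. They were chosen by name, as members of these pathways, with earlier results of these data known. Matching Ensembl gene IDs to symbols found all 31 among the 51912 genes of the deposited tables. All 31 also passed the filter on low counts, which kept 17990 genes. The lowest count of any of them in any library was 144.

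Polyadenylated RNA of HM1 cells, a mouse embryonic stem cell line, was sequenced at 12 time points with 3 libraries each. Before day 0 the cells were grown in N2B27, a serum-free medium, with 10 ng/ml bFGF, and for the last day also with 5 µM CHIR99021 (an activator of Wnt signalling), 10 µM SB431542 and 2 µM DMH1 (inhibitors of activin and BMP receptors). Day 0 is labelled as the control, and its cells are described as neuromesodermal progenitors. From day 0 on, every later time point (days 0.5, 1, 1.5, 2, 2.5, 3, 3.5, 4, 5, 6 and 7) received 100 nM retinoic acid and 500 nM SAG, an agonist of hedgehog signalling. No time point after day 0 was left without these agents, so time, treatment and cell type cannot be told apart. Feeder cells had been removed before plating, and the medium was renewed every day at an hour that the labels do not give. The replicates are numbered as biological replicates of 1 line, and whether they were separate cultures is not stated, so the p-values measure the spread between these libraries.

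Library totals ran from 26567321 to 35757989 estimated counts, and the 31 genes held 1.01% to 1.45% of them. By its markers, day 0 had 542 to 595 summed TPM of caudal epiblast and neuromesodermal genes, and motor neuron genes were most abundant at days 2.5 and 3, at a mean of 129 summed TPM. At day 7 the motor neuron markers summed to only 6.89 to 8.63 TPM (the length-corrected share of a gene among all transcripts of a library), while astroglial markers summed to 3311 to 3469 TPM. Most of the astroglial sum at day 7 came from Fabp7 alone. The late cultures are therefore named here by their day alone. In bulk RNA, fewer cells of a type and less RNA per cell cannot be told apart.

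Sterol synthesis starts from acetyl-CoA in the cytosol, passes through mevalonate to isoprenoid units, joins these to squalene and closes squalene to lanosterol, which further enzymes trim to cholesterol. Fatty acid synthesis uses the same acetyl-CoA, builds palmitate, and elongates and desaturates it for membranes. Both are driven by the transcription factors Srebf2 (mainly sterol genes) and Srebf1 (mainly fatty acid genes), which are held in the endoplasmic reticulum by Insig1 when sterols are plentiful and act at promoters together with NF-Y, a factor that binds the CCAAT box.

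Promoter sequence from RefSeq (GRCm38.p6) was available in the table used for 24 of the 31 genes, as 250 bases upstream of each annotated start. The letters CCAAT were found on either strand in 19 of the 24, or 79.2%, against 40.4% of the 12412 tested genes with such a sequence. GC boxes (GGGCGG, either strand) were found in 20 of the 24, or 83.3%, against 62.3%. The form TCACNCCAC of the sterol regulatory element was found in 1 of the 24, Hmgcs1, against 1.26% of the tested genes. By role, CCAAT was present in 5 of 6 genes of the mevalonate and isoprenoid steps, 9 of 9 of the squalene and sterol ring steps, 3 of 3 regulators, 2 of 5 genes of fatty acid supply and synthesis and 0 of 1 desaturase. These are matches of letters, described as such, and the absence of a match says only that those letters are not in the window. A gene with several annotated starts counted if any of its windows matched. The CCAAT matches of Dhcr7 and Me1 lay only before starts inside these genes. For Acaca, even the window nearest to the beginning of the gene lay inside it.

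The 200 bases before the start are shown for 6 genes whose window lies upstream of the GENCODE gene as well. They were chosen to set sterol enzymes with several CCAAT boxes beside fatty acid genes. Their courses over time did not divide in the same way. Mvd and Fasn both had their highest mean TPM at day 0 and their lowest at day 6, and Acly its highest at day 3. A link between these letters and the course was not tested. Capitals mark CCAAT, its reverse complement ATTGG and, in Hmgcs1, the sterol regulatory element, which starts 137 bases before the start. Matches of CCAAT and ATTGG can overlap, as they do in Fasn.
Hmgcs1 (chr13:119690151-119690350, plus strand): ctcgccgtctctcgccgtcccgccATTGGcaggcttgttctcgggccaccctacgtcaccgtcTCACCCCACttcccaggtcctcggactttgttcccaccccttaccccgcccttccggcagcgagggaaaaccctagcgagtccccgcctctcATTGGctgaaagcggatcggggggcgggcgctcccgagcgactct
Mvk (chr5:114444069-114444268, plus strand): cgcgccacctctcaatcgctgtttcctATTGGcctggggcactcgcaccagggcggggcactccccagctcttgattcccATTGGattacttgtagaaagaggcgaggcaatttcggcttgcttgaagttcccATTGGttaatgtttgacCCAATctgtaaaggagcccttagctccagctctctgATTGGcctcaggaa
Mvd (chr8:122443423-122443622, minus strand): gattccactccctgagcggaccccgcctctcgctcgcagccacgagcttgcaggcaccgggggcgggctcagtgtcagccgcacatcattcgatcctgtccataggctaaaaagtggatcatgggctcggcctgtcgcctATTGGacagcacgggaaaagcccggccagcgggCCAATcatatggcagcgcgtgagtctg
Nsdhl (chrX:72918321-72918520, plus strand): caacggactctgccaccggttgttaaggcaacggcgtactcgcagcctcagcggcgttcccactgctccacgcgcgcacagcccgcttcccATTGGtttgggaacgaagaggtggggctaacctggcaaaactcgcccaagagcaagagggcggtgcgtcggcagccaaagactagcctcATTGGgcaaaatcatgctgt
Fasn (chr11:120824548-120824747, minus strand): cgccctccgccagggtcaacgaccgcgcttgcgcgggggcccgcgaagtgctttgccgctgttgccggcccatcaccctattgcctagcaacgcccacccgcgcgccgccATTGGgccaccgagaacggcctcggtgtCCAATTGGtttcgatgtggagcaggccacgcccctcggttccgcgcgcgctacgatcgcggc
Acly (chr11:100528001-100528200, minus strand): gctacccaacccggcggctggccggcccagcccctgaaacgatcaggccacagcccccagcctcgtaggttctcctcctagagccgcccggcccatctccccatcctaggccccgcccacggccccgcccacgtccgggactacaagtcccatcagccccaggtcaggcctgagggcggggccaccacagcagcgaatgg
In these 200 bases Mvk held 5 CCAAT boxes, Fasn 3, and Hmgcs1, Mvd and Nsdhl 2 each, while Acly held 0 and 4 GC boxes.

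The course of the genes over 7 days had a fall, a rise, a second fall at day 6 and a partial recovery. Of the 31 genes, 9 had their highest mean TPM at day 0, 6 at day 5 and 4 at day 7. The lowest mean fell at day 1 for 10 genes, at day 6 for 9 and at day 0.5 for 6. In every one of the 31 genes the libraries of the highest day lay above those of the lowest day without overlap. The ratio of highest to lowest mean TPM ranged from 1.48 for Sc5d, a late sterol desaturase, to 9.64 for Me1, the cytosolic malic enzyme that supplies NADPH.

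**Figure D1:**
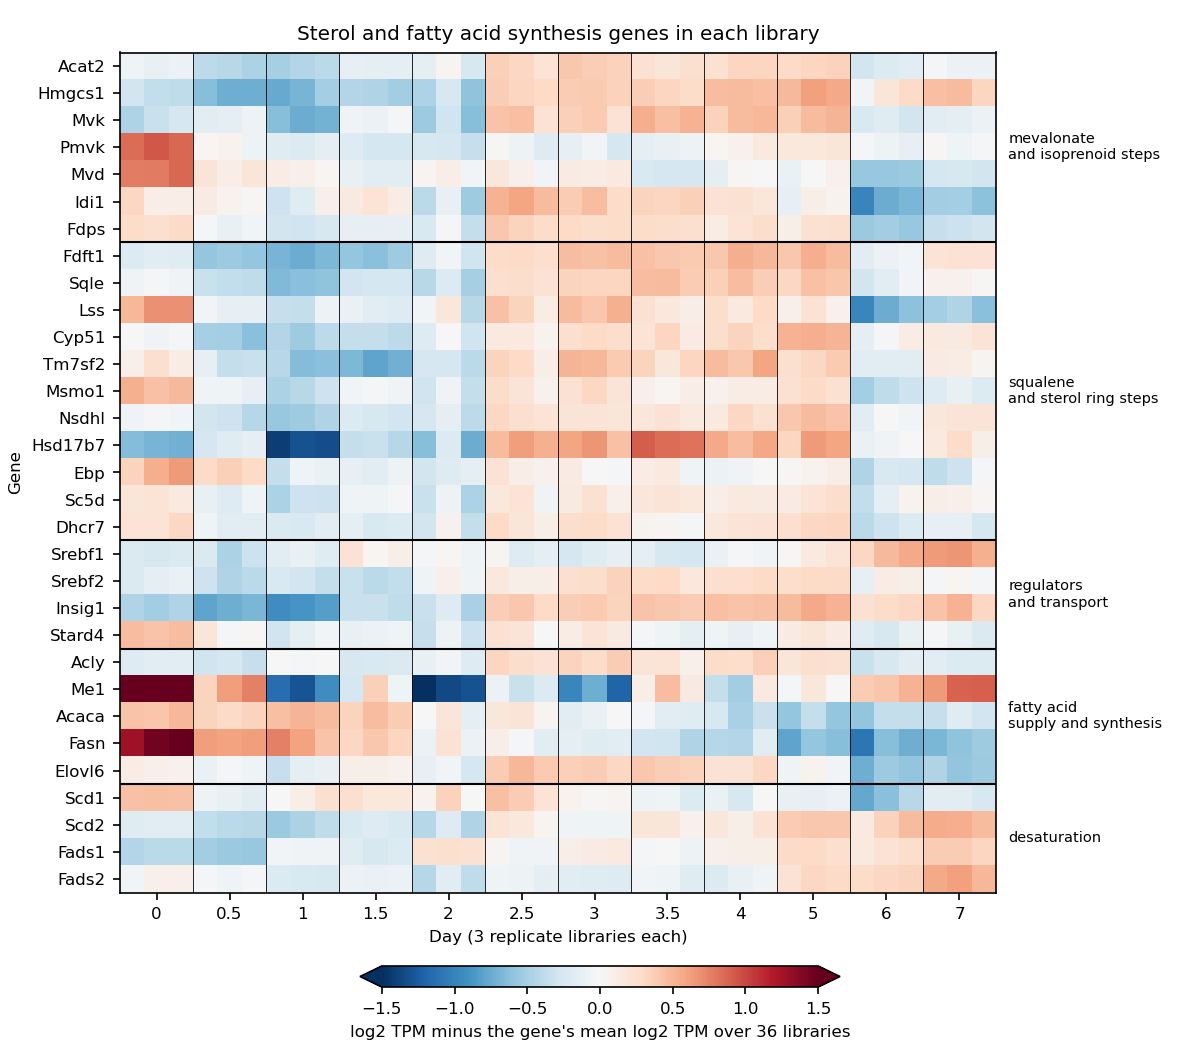
Each row is a gene, grouped by role, and each column a library, ordered by day; colour gives log2 TPM minus the gene's mean over 36 libraries. Most sterol genes are pale or blue from day 0.5 to day 2, red from day 2.5 to day 5 and blue or pale at day 6, while Fasn and Acaca fade from red to blue and Me1 alternates.

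The enzymes of the mevalonate and isoprenoid steps divided into genes that ended above, near and below day 0. Hmgcs1, which makes HMG-CoA and is the most abundant of them (ENSMUSG00000093930, chr13:119690379-119708260), had 536, 499 and 498 TPM at day 0, 414, 390 and 390 at day 0.5, and 467, 548 and 424 at day 2. It then had 832, 807 and 797 TPM at day 2.5, 904, 992 and 955 at day 5, 626, 733 and 791 at day 6 and 884, 898 and 807 at day 7. The day 2.5 libraries all lay above every library of days 0 to 2. Between day 2 and day 2.5 it was higher by 0.73 ± 0.06 on the log2 scale (edgeR's quasi-likelihood test, approximate SE, adjusted p = 2.94e-11).

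Mvk, mevalonate kinase, had 42.3, 46.3 and 49.1 TPM at day 0, 37.5, 34.7 and 35.5 at day 1, 78.1, 79.6 and 67.9 at day 2.5 and 49.8, 51.4 and 48.3 at day 6. Its day 2.5 libraries exceeded all libraries of days 0 to 2, and its day 6 libraries lay near those of day 0. The next kinase, Pmvk, took another course, with 130, 138 and 131 TPM at day 0 and no library above 82.05 TPM afterwards. Mvd, the decarboxylase that follows it, likewise had 169, 170 and 180 TPM at day 0, 114, 106 and 112 at day 0.5 and 67.1, 67.0 and 67.2 at day 6. For Pmvk and Mvd the day 0 libraries lay above all others. Between day 0 and day 0.5, Pmvk fell by 0.89 ± 0.05 and Mvd by 0.64 ± 0.05 on the log2 scale.

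Acat2, the cytosolic thiolase that begins the pathway, and Fdps, which makes farnesyl pyrophosphate, were, like Hmgcs1, higher at day 2.5 than at day 2 and lower at day 6 than at day 5. Fdps had 548, 537 and 554 TPM at day 0, 598, 569 and 547 at day 2.5 and 307, 316 and 306 at day 6. Idi1, the isomerase between both isoprenoid units, had 155, 134 and 134 TPM at day 0, 179, 188 and 174 at day 2.5 and 62.9, 74.3 and 78.0 at day 6. Its day 6 libraries were the lowest of the whole course. The values of Idi1 are uncertain, since the predicted gene Gm13502 matched 684 bases of it without a mismatch and had a mean of 23.2 TPM, between 7.89 at day 7 and 49.2 at day 0.

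In the squalene and sterol ring steps all 11 genes were higher at day 2.5 than at day 2, and all 11 lower at day 6 than at day 5. Hsd17b7, a ketoreductase of the sterol ring (ENSMUSG00000026675, chr1:169949535-169969241), had the widest range among them, with 12.6, 13.5 and 13.3 TPM at day 1 and 62.9, 59.8 and 58.9 at day 3.5. Sqle, squalene epoxidase, had 173, 175 and 172 TPM at day 0, 113, 116 and 117 at day 1, 246, 248 and 233 at day 3.5 and 147, 160 and 174 at day 6. Both had their lowest mean at day 1 and their highest at day 3.5, with no overlap between the libraries of these days.

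Lss, which closes squalene to lanosterol, differed from Sqle in ending low: it had 212, 242 and 240 TPM at day 0, 203, 189 and 162 at day 2.5, 75.8, 89.6 and 97.8 at day 6 and 106, 110 and 97.3 at day 7. Msmo1, a sterol demethylating oxidase, had 455, 429 and 441 TPM at day 0 and 276, 292 and 273 at day 7, and Ebp, a sterol isomerase, had 55.4, 63.8 and 68.1 TPM and then 33.6, 35.4 and 43.0. In Lss, Msmo1 and Ebp every day 7 library lay below every day 0 library. Fdft1, which joins farnesyl units to squalene, instead had 114, 117 and 116 TPM at day 0 and 151, 152 and 153 at day 7.

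That last pair shows how far the scale matters. The log2 fold change of Fdft1 between day 7 and day 0 was 0.04 ± 0.04 after TMM scaling of counts and was not called, although its TPM was higher at day 7 in 3 of 3 libraries. TMM scaling assumes that most genes do not change, and on the log2(TPM + 1) scale the median of all tested genes moved from 0.05 to 0.28 for day 7 against day 0 and from 0.01 to 0.13 for day 4 against day 2. Fold changes below are on the TMM scale, and levels are in TPM.

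**Figure D2:**
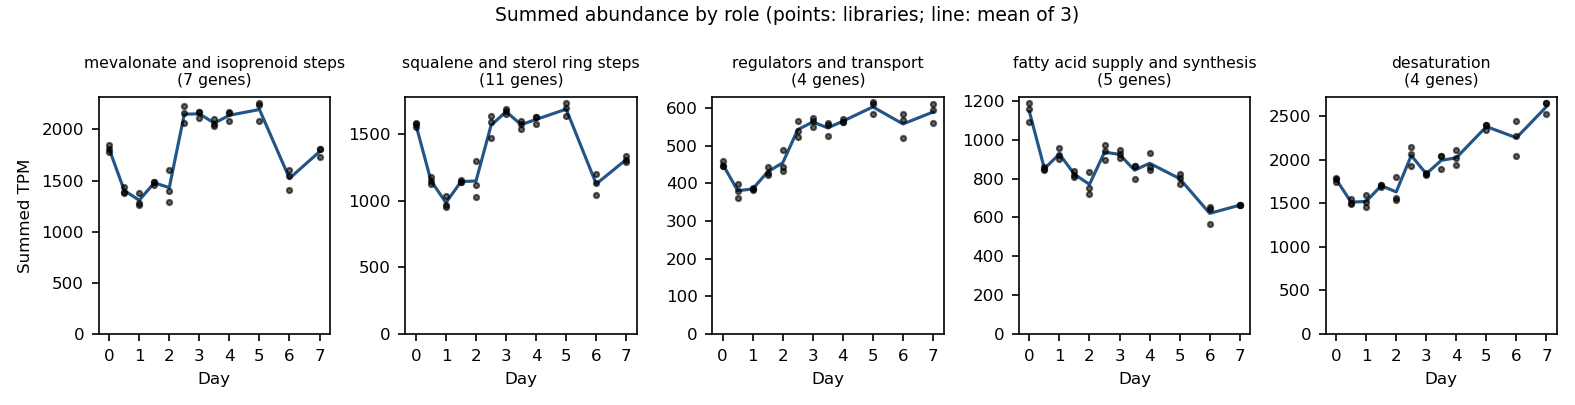
Summed TPM of the genes of each role against day, with a point for each library and a line through the means of 3. The means of the 4 roles of enzymes are lower at day 0.5 than at day 0, higher at day 2.5 than at day 2 and lower at day 6 than at day 5. Fatty acid supply and synthesis goes from 1144 to 851, from 770 to 936 and from 800 to 621 at these steps, and desaturation is highest at day 7, at 2607.

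The regulators did not share 1 course. Insig1, which retains the Srebf factors and is itself one of their targets, had 87.9, 83.3 and 88.1 TPM at day 0, 62.9, 65.1 and 67.9 at day 1, 155, 159 and 147 at day 2.5 and 161, 172 and 149 at day 7. Its libraries from day 2.5 on all lay above those of days 0 to 2. Srebf2 had 160, 167 and 174 TPM at day 0, 149, 136 and 140 at day 0.5, 221, 223 and 236 at day 3 and 184, 189 and 182 at day 7. Srebf1 had 100, 99.0 and 100 TPM at day 0 and stayed at or below 135 TPM up to day 5, then had 145, 163 and 172 at day 6 and 181, 184 and 168 at day 7. No enzyme of the sterol steps had its highest mean TPM at day 7, while the desaturases Scd2, Fads1 and Fads2 did. Stard4, a carrier of cholesterol between membranes, was highest at day 0, at 98.9, 96.4 and 98.6 TPM, and had 70.1, 66.3 and 61.7 at day 7.

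Among the genes of fatty acid supply and synthesis, Fasn and Me1 had the widest ranges. Fasn, fatty acid synthase (ENSMUSG00000025153, chr11:120805846-120824547), had 480, 541 and 559 TPM at day 0, 306, 302 and 307 at day 0.5, 186, 230 and 187 at day 2, 148, 146 and 176 at day 4 and 123, 130 and 137 at day 7. The day 0 libraries lay above all others, and day 7 was lower than day 0 by a log2 fold change of -2.40 ± 0.08 (edgeR, adjusted p = 5.62e-24), the largest fall of the 31 genes in that comparison. Acaca, the carboxylase that supplies Fasn with malonyl-CoA, had 89.6 to 93.2 TPM at day 1 and 43.6 to 51.0 TPM at day 5.

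Acly, which splits citrate into cytosolic acetyl-CoA for both pathways, had its highest mean at day 3: it had 420, 428 and 428 TPM at day 0, 601, 581 and 622 at day 3 and 378, 406 and 430 at day 6. Elovl6, which elongates palmitate, had 67.1, 65.6 and 65.0 TPM at day 0, 81.3, 87.7 and 81.7 at day 2.5 and 37.6, 42.6 and 41.3 at day 6. Its libraries of days 6 and 7 lay below those of all earlier days.

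The 4 desaturases parted. Scd2, the stearoyl-CoA desaturase of brain and the most abundant of the 31 genes, had 1088, 1107 and 1099 TPM at day 0, 840, 888 and 946 at day 1 and 1815, 1797 and 1719 at day 7. Scd1, the same activity in liver and fat, had 234, 236 and 234 TPM at day 0, 101, 111 and 129 at day 6 and 154, 153 and 146 at day 7. Between day 0 and day 7, Scd2 was higher by 0.33 ± 0.06 and Scd1 had a log2 fold change of -1.00 ± 0.07. The transcripts of Scd1 and Scd2 match at 94.7% over 624 bases, so reads may have been shared between them. Fads1 and Fads2, which desaturate polyunsaturated fatty acids, were both highest in TPM at day 7, Fads1 at 286, 287 and 274 TPM against 162, 166 and 166 at day 0, and Fads2 at 398, 411 and 380 against 261, 283 and 283. In TMM-scaled CPM (counts relative to the library total) the highest mean of Fads1 was at day 2.

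The first comparison asked what changed in the first 12 hours after retinoic acid and SAG were added. At day 0.5, 25 of the 31 genes were lower than at day 0 and 2 were higher, where 26.7% of all tested genes were called lower and 27.6% higher. The median log2 fold change of the 31 genes was -0.32, against 0.00 for all genes. Lower were 5 of 7 mevalonate and isoprenoid genes, 10 of 11 squalene and sterol ring genes, 3 of 4 regulators and transporters, 4 of 5 genes of fatty acid supply and synthesis and 3 of 4 desaturases. Me1 fell furthest, with a log2 fold change of -1.30 ± 0.11. The 2 genes that were higher were Hsd17b7, by 0.29 ± 0.07 (0.47 on the log2(TPM + 1) scale), and Mvk, by 0.17 ± 0.07. The Mvk call was lost when day 0 replicate 1 (0.09) or any of the day 0.5 libraries (0.14 to 0.17) was left out. Over these hours neural progenitor markers went from a mean of 61.7 to 435 summed TPM and pluripotency markers from 299.8 to 50.2, and their part in the result was not tested.

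Between day 0.5 and day 2, 18 of the 31 genes were lower and 8 higher (34.0% and 33.9% of all genes). Me1 fell most, with a log2 fold change of -2.14 ± 0.13, and Fads1 rose most, by 0.67 ± 0.03. Fasn fell by 0.69 ± 0.08. All of Acat2, Cyp51, Fdft1, Hmgcs1, Insig1, Srebf1 and Srebf2 were higher, by 0.14 to 0.29. On the log2(TPM + 1) scale Hmgcs1 had 0.26 and Acat2 0.31. Without day 2 replicate 2 the value of Hmgcs1 was 0.05 and that of Srebf1 0.09, and neither was called. Hmgcs1 was also not called with median-of-ratios scaling (0.14) or DESeq2 (0.14), nor without day 0.5 replicate 2 (0.16) or 3 (0.15), and Srebf1 was not called without day 0.5 replicate 2 (0.14). Day 2 replicate 2 was the highest of its day for 27 of the 31 genes. The calls of Sqle, Tm7sf2, Dhcr7 and Elovl6 in this comparison, with log2 fold changes of -0.10 to -0.15, were each lost without day 2 replicate 3 (-0.05 to -0.11), day 2 replicate 1 (-0.07 to -0.12) or day 0.5 replicate 1 (-0.07 to -0.09). Those of Sqle, Dhcr7 and Elovl6 were lost without day 0.5 replicate 2 or 3 as well (-0.08 to -0.15). All 4 calls were also lost on the log2(TPM + 1) scale (-0.01 to -0.08) and when only the libraries compared were fitted (-0.09 to -0.14). Between day 0.5 and day 2 the mean summed TPM of neuron markers went from 73.1 to 528, of motor neuron markers from 5.62 to 85.0, of endothelial markers from 8.05 to 49.3, of neural progenitor markers from 435 to 597 and of caudal epiblast and neuromesodermal markers from 97.6 to 5.04. Their part in the result was not tested.

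Between day 2 and day 4, 21 of the 31 genes were higher and 6 lower (33.1% and 31.8% of all genes), with a median of 0.19 against 0.01. The rise covered 6 of 7 mevalonate and isoprenoid genes and 10 of 11 squalene and sterol ring genes. Hsd17b7 rose most, by 0.99 ± 0.07, followed by Me1 (0.90 ± 0.14), Mvk (0.71 ± 0.07) and Hmgcs1 (0.69 ± 0.06). Lower were Fasn, Acaca, Scd1, Fads1, Srebf1 and Mvd, with log2 fold changes from -0.27 to -0.59. Smaller rises depended on single libraries: Lss, Msmo1, Dhcr7, Fdps and Elovl6 (0.15 to 0.19) were not called without day 2 replicate 3 (0.08 to 0.12). Lss, Msmo1 and Dhcr7 were also lost without day 2 replicate 1 (0.11 to 0.15), Lss without day 4 replicate 1 or 3 (0.16), Msmo1 without day 4 replicate 2 (0.13) and Dhcr7 without day 4 replicate 3 (0.14), and all of Lss, Msmo1 and Dhcr7 when only the libraries compared were fitted (0.14 to 0.18). Pmvk (0.18) was not called without day 4 replicate 3 (0.13). On the log2(TPM + 1) scale the falls of Mvd (-0.08) and Srebf1 (-0.05) were not called, those of Fasn, Scd1 and Fads1 were -0.36, -0.24 and -0.15, and Pmvk, Lss, Msmo1, Dhcr7, Fdps and Elovl6 had 0.33 to 0.39. The mean summed TPM of neuron markers went from 528 at day 2 to 1965 at day 4, of astroglial markers from 68.3 to 1683 and of fibroblast and mesenchyme markers from 21.6 to 103. Their part in the result was not tested.

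Between day 4 and day 7, 20 of the 31 genes were lower and 5 higher (32.9% and 33.5% of all genes), with a median of -0.27 against 0.00. Lower were 6 of 7 mevalonate and isoprenoid genes and 9 of 11 squalene and sterol ring genes, with a log2 fold change of -0.79 ± 0.08 for Idi1. Elovl6, of fatty acid elongation, had -0.87 ± 0.05. The falls of Cyp51, Stard4 and Pmvk were not called on the log2(TPM + 1) scale, and that of Pmvk was also lost without day 4 replicate 3. Other settings gave 17 to 21 genes lower and 5 higher. The 5 that were higher were Me1 (1.14 ± 0.12), Srebf1 (0.71 ± 0.05), Fads2 (0.63 ± 0.05), Scd2 (0.31 ± 0.06) and Fads1 (0.22 ± 0.03). Over the same days astroglial markers rose from 1555 to 1847 summed TPM to 3311 to 3469, with Fabp7 at 3188 and Gfap at 0.12 TPM at day 7, and fibroblast and mesenchyme markers from 97.8 to 106 to 827 to 939. In that list 5 of 5 genes were higher, and in the astroglial list 4 of 5. Cell division genes were lower in 15 of 15. The part of these cell types in the result was not tested.

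**Figure D3:**
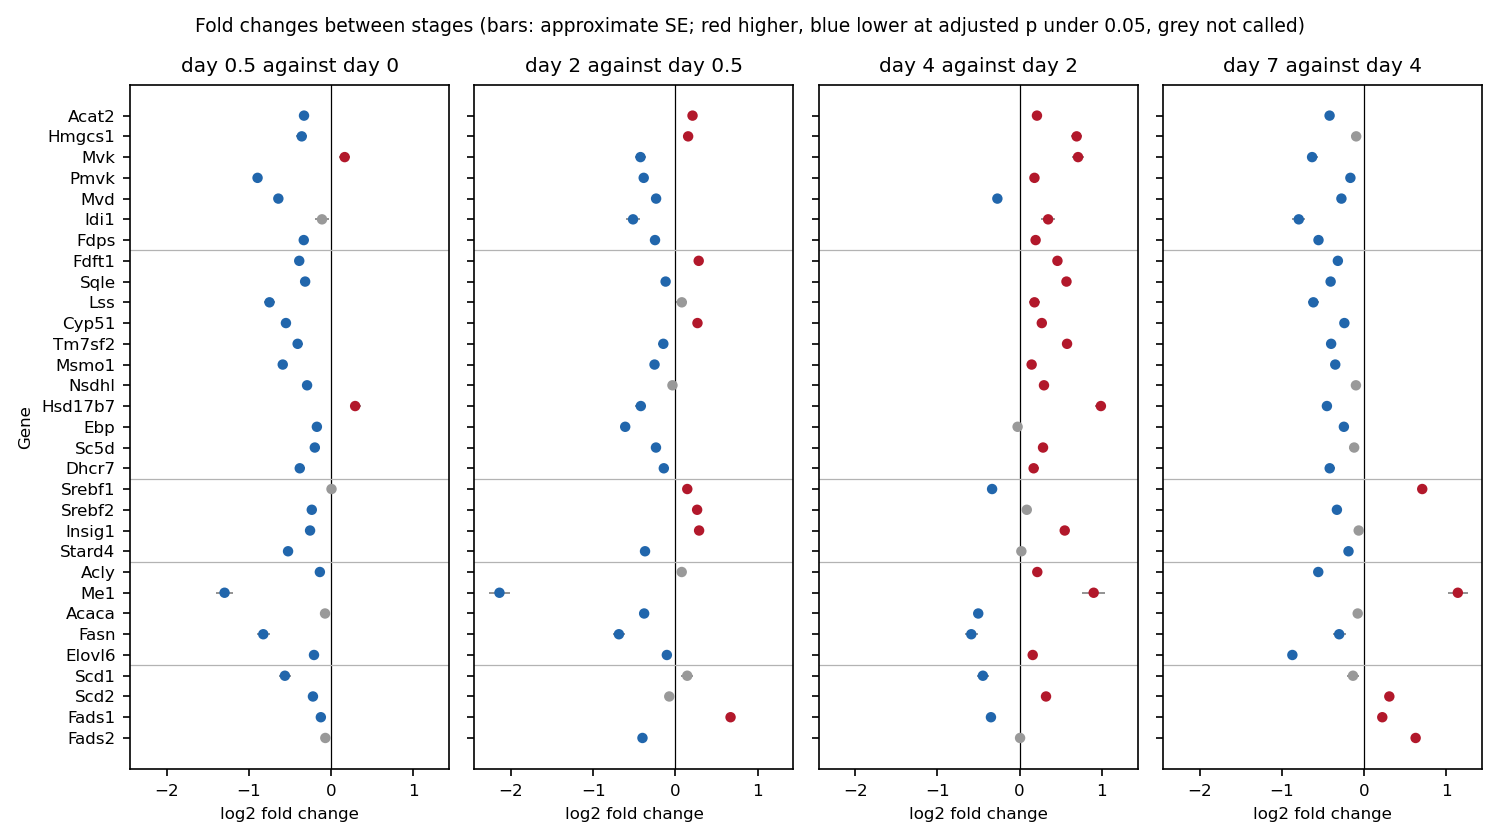
Log2 fold change of each gene (points, with approximate SE) between stages, in 4 panels; red is higher and blue lower at an adjusted p under 0.05, and grey was not called. Points lie mostly left of 0 at day 0.5, right of 0 from day 2 to day 4 and left again at day 7, with Me1, Srebf1, Fads1, Fads2 and Scd2 to the right in the last panel.

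Across the whole course, day 7 against day 0, 23 of the 31 genes were lower and 7 higher (41.2% and 44.1% of all genes). The 7 were Srebf1 (0.52 ± 0.05), Insig1 (0.52 ± 0.05), Fads1 (0.42 ± 0.03), Hsd17b7 (0.41 ± 0.07), Hmgcs1 (0.40 ± 0.06), Scd2 (0.33 ± 0.06) and Fads2 (0.16 ± 0.05). All 5 genes of fatty acid supply and synthesis were lower, and 3 of 4 desaturases were higher. The count depends on the scale: on the log2(TPM + 1) scale 14 genes were lower and 12 higher. There the 7 genes had 0.82 (Srebf1), 0.89 (Insig1), 0.78 (Fads1), 0.83 (Hsd17b7), 0.76 (Hmgcs1), 0.69 (Scd2) and 0.52 (Fads2). On this scale Mvk, Sqle, Cyp51, Nsdhl, Acat2 and Srebf2 changed sign, so no direction is given for them between these days, and the falls of Tm7sf2 (-0.06), Sc5d (-0.11) and Acly (-0.03) were not called. The 14 genes that were lower on both scales were Fasn, Lss, Mvd, Pmvk, Fdps, Msmo1, Idi1, Ebp, Dhcr7, Scd1, Acaca, Elovl6, Me1 and Stard4, from -0.41 for Dhcr7 to -2.01 for Fasn on the log2(TPM + 1) scale.

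The steps between neighbouring time points, chosen for comparison after the data had been seen, show when the changes fell. The step from day 2 to day 2.5 raised 25 genes and lowered 2 (24.9% and 22.9% of all genes), among them all 11 squalene and sterol ring genes, Hsd17b7 by 1.06 ± 0.07, Idi1 by 0.82 ± 0.08 and Mvk by 0.78 ± 0.07. The 2 lowered were Fads1 and Srebf1. Neuron markers went from a mean of 528 to 1433 summed TPM in this step and motor neuron markers from 85.0 to 129, and their part in the result was not tested. Before it, 3 genes were higher and 15 lower from day 0.5 to day 1 (23.3% and 24.3% of all genes), 18 higher and 4 lower from day 1 to day 1.5 (27.0% and 19.4%), and 4 higher and 21 lower from day 1.5 to day 2 (26.1% and 27.2%). After it, 4 were higher and 9 lower from day 2.5 to day 3 (18.1% and 16.3%), and 4 and 9 from day 3 to day 3.5 (21.0% and 19.8%). From day 3.5 to day 4, 0 were higher and 11 lower by edgeR (19.4% and 20.8%), and from day 4 to day 5, 9 were higher and 3 lower (21.2% and 16.8%). Some of these steps depended on the scale. From day 3.5 to day 4 the median log2 fold change of the genes was -0.09 by edgeR and 0.02 in TPM. From day 2.5 to day 3 it was -0.04 and 0.01. No direction is therefore given for the genes as a set in these steps. From day 1.5 to day 2 the median was -0.21 by edgeR and -0.08 in TPM. Without day 2.5 replicate 3 no gene was higher at day 3, without day 2.5 replicate 1 only 5 were lower, and without day 4 replicate 1 the 11 falls at day 4 became 5.

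The step from day 5 to day 6 lowered 27 of the 31 genes and raised 1 (26.4% and 24.1% of all genes), with a median of -0.60 against 0.00. It took in 7 of 7 mevalonate and isoprenoid genes and 11 of 11 squalene and sterol ring genes, from -0.34 for Pmvk to -0.91 for Idi1. Srebf1 was the 1 gene that rose, by 0.24 ± 0.05, and Acaca, Fads2 and Me1 did not pass the test, at 0.00, -0.07 and 0.16. From day 6 to day 7, 21 genes were higher and 0 lower (11.3% and 8.95% of all genes), Scd1 most, by 0.43 ± 0.07. Replicate 1 of day 6 was the lowest library of its day for 26 of the 31 genes, and leaving out any 1 library gave 25 to 27 genes lower from day 5 to day 6 and 17 to 21 higher from day 6 to day 7. Between day 5 and day 6 the mean summed TPM of fibroblast and mesenchyme markers went from 272 to 542, of motor neuron markers from 42.1 to 11.8 and of oligodendrocyte lineage markers from 28.2 to 47.9, and their part in the result was not tested.

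**Figure D4:**
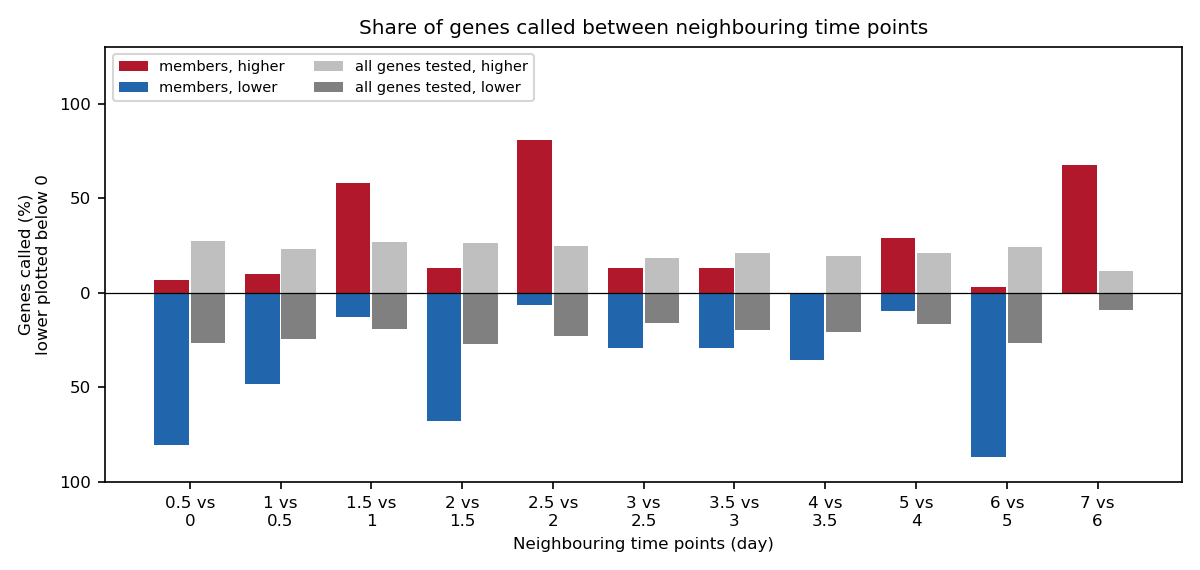
Percent of the 31 genes (red higher, blue lower) and of all 17990 tested genes (grey) called between each pair of neighbouring time points, with lower calls plotted below 0. The longest bars of the 31 genes are the fall of 27 at day 6, the fall of 25 at day 0.5 and the rise of 25 at day 2.5.

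Several genes also alternated between days at 12-hour spacing. The mean of days 1.5, 2.5 and 3.5 was compared with the whole days around them, and 21 of the 31 genes were higher at the 12-hour points and 2 lower (27.9% and 25.4% of all genes). Me1 moved most, by 1.12 ± 0.07 (edgeR, adjusted p = 1.32e-14): it had 4.68, 4.20 and 5.43 TPM at day 1, 8.60, 13.2 and 9.89 at day 1.5, 3.48, 4.06 and 4.17 at day 2, 9.71, 8.17 and 9.0 at day 2.5, 5.23, 6.20 and 4.51 at day 3, 11.01, 14.3 and 11.3 at day 3.5 and 8.09, 7.19 and 11.5 at day 4. In the first 5 of these steps no library overlapped with the day before, and at day 4 1 library did. The predicted gene Gm7049, which matches Me1 at 98.4% over 1716 bases, alternated too, at a mean of at most 4.32 TPM, so part of its reads may belong to Me1.

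Hsd17b7 was higher at these points by 0.48 ± 0.04, Mvk by 0.41 ± 0.04 and Idi1 by 0.36 ± 0.04. Mvk, Ebp, Elovl6, Fads2 and Me1 had a mean TPM above both neighbouring days at all 3 points, or 5 of 31 genes where 7.88% of all tested genes did so. Fads1 went the other way, lower by a log2 fold change of -0.16 ± 0.02, and at all 3 points every library lay below those of both neighbouring days. Mvd was the other gene that was lower (-0.11 ± 0.03). Hmgcs1 was above the mean of its neighbours by 0.36 on the log2 TPM scale at day 2.5 and by -0.09 at day 3.5. No point had a mean TPM above both neighbouring days in 13 of 31 genes, or in 57.2% of all tested genes. Hmgcs1, Acat2, Insig1 and Cyp51 were among these 13 yet were called higher, so a call alone does not show alternation. By single point, 21 genes were higher and 4 lower at day 1.5, 26 and 1 at day 2.5, and 9 and 4 at day 3.5. The share of all tested genes was not computed for single points, so these counts cannot be set against it. Of the 15 cell division genes, 14 were higher at the 12-hour points and 0 lower, and the part of cell division and of the time since the last change of medium in this pattern was not tested.

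**Figure D5:**
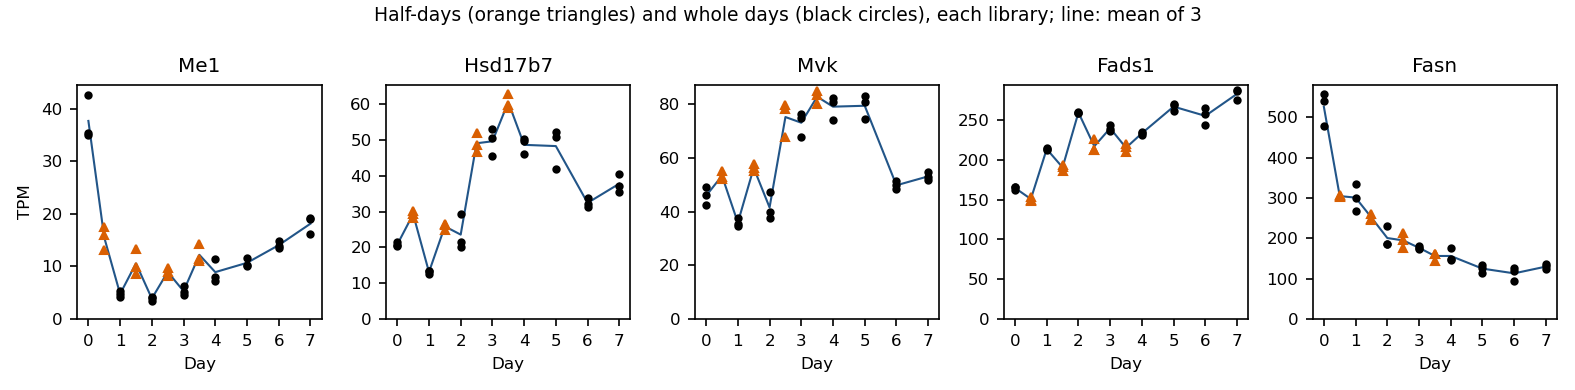
TPM of Me1, Hsd17b7, Mvk, Fads1 and Fasn against day, each library a point, with days 0.5, 1.5, 2.5 and 3.5 as orange triangles and the line through the means of 3. Me1 has a higher triangle between lower circles at each 12-hour point from day 1.5 on, Fads1 a lower one, and Fasn declines without alternating.

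The other genes of lipid metabolism, from lists of the same pathways, are given by count. Of 14 genes of sterol sensing and control, 6 were higher and 3 lower at day 0.5, where 27.6% and 26.7% of all tested genes were. At day 7 against day 0, 8 were higher and 6 lower, where 44.1% and 41.2% of all tested genes were, Tmem97 most, with a log2 fold change of -1.72. Tmem97 is a sterol-related membrane protein, also known as the sigma-2 receptor. The isoprenoid branches lead to ubiquinone, dolichol and prenylated proteins. Of their 14 genes, 3 were higher and 11 lower at day 7 against day 0, where 44.1% and 41.2% of all tested genes were.

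Of 13 tested genes of sterol efflux, transport and storage, 9 were higher and 4 lower at day 7 against day 0, against 44.1% and 41.2% of all tested genes. Abca1, which exports cholesterol from the cell, was higher by 4.25 within the first 12 hours and by 5.88 over 7 days. Soat1, which esterifies cholesterol for storage, was lower by a log2 fold change of -0.95 and -2.40. Of 19 genes of fatty acid oxidation, 14 were higher and 3 lower at day 7 against day 0, against the same shares of all tested genes. Cpt1a, an enzyme of fatty acid entry into mitochondria, was higher by 4.25. Of 24 genes of fatty acid activation, elongation and glycerolipids, 12 were higher and 11 lower over the same days, near the shares of all tested genes (44.1% and 41.2%).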

How the data were processed

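The series holds 36 libraries of polyadenylated RNA from HM1 cells, 3 for each of 12 time points. bcl2fastq 2.20.0, RSEM and the build GRCm38 are named in the submitters' processing notes. The strand setting, aligner and annotation release were not given in the sources used here. The authors deposited RSEM expected counts, which are estimated counts (6.87% of the values were not whole), and TPM, whose columns summed to between 999999.21 and 1000000.98.

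Expected counts were rounded. Of 32047 genes with any count, edgeR's filterByExpr kept 17990. All libraries were fitted with TMM scaling (factors 0.924 to 1.06), 12 groups and 24 residual degrees of freedom by edgeR 4.0.16 (glmQLFit, glmQLFTest) in R 4.3.3, and a gene was called at a Benjamini-Hochberg adjusted p under 0.05 over all tested genes. Alternatives used DESeq2 1.42.0 and limma 3.58.1 on log2(TPM + 1) and log2(TPM + 0.1). Standard errors are approximate: |log2 fold change| over the root of the F value. The fit was tested on simulated data.

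The 31 genes, their roles and the other lists were chosen with earlier results of these data known. All 31 are described; from each other list the text names called genes with the largest rise or fall and at least 10 CPM in the higher group. The 10 steps between neighbouring time points and the single 12-hour points were added after seeing the data.

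Same-numbered replicates of days 0 and 0.5 deviated together (correlations of deviations 0.31, 0.14 and 0.16 over 10321 genes). Those of days 0 and 7 did so as well (0.44, 0.20 and 0.17). Those of the other stage comparisons had mixed signs, such as 0.11, -0.13 and 0.23 for days 4 and 7. Over all pairs of time points, 75 of 198 same-numbered pairs of libraries had a correlation over 0.1, and 124 of 396 other pairs did. The highest correlations were 0.44 and 0.49, so these values do not show that the numbers pair the libraries. No 2 libraries were identical. By GENCODE M21, exons of Hmgcs1, Fdft1, Lss, Cyp51, Srebf1, Elovl6 and Me1 overlap a gene on the other strand, and those of Fdps and Tm7sf2 a gene on the same strand. BLAST found transcripts alike to Acaca (Gm5182), Acat2 (Acat3) and Me1 (Gm7049). It also found Tcp1 (98.7% over 445 bases of Acat2, mean 529 TPM), Ctsb (100% over 774 of Fdft1, 61.4 TPM) and Vps51 (100% over 532 of Tm7sf2, 42.2 TPM). Values of these genes are uncertain.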

Additional observations from a re-analysis of the deposited data

How the results depend on the processing

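On the TPM scale, with 1 or 0.1 added, 12 genes were higher and 14 lower at day 7 against day 0, and 4 were lower at the 12-hour points. Signs reversed there between day 7 and day 0 for Mvk (0.209 and 0.213), Sqle (0.0894 and 0.0899), Cyp51 (0.183 and 0.184), Nsdhl (0.228 and 0.230), Acat2 (0.0195 and 0.0196) and Srebf2 (0.147 and 0.147), and at the 12-hour points for Cyp51 (-0.0199 and -0.020); the cause was not tested. By 12-hour point, day 1.5 alone gave 21 higher and 4 lower, day 2.5 alone 26 and 1, and day 3.5 alone 9 and 4. Each compared fewer time points within a fit of all 36 libraries, and the share of all tested genes was not computed for them. In TMM-scaled CPM 14 genes had their lowest mean at day 6. With the replicate block, 2 genes were higher and 25 lower at day 0.5, and 8 and 18 at day 2. The numbers were 21 and 6 at day 4 and 5 and 20 at day 7 against day 4. At day 7 against day 0 they were 7 and 23. Blocking by replicate number changed none of these counts. Leaving out 1 library at a time gave 1 to 2 higher at day 0.5 against day 0. It gave 1 to 2 lower from day 2 to day 2.5 (1 without day 2 replicate 2 or day 2.5 replicate 3), 0 to 4 higher and 5 to 11 lower from day 2.5 to day 3 (0 higher without day 2.5 replicate 3, 5 lower without day 2.5 replicate 1), and 0 to 1 higher and 5 to 12 lower from day 3.5 to day 4 (1 and 5 without day 4 replicate 1). Of 2883 alternatives of single fold changes, 2746 kept direction and side of the threshold, 92 lost the call, 31 gained one and 14 reversed.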
